A study of Mus musculus with 4 samples.

Results

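The imprinted Dlk1-Dio3 domain on distal mouse chromosome 12 holds one of the largest groups of miRNA genes in mammals, and this account covers its mature miRNAs in extracellular vesicles of C2C12 cells. Members were all rows of the deposited count table that start within a fixed window on the plus strand of chromosome 12 (mm10), from just before Meg3 to just after Mirg. The first member starts at 109544588 and the last at 109747928. The rule used position alone and found 110 of the 2110 rows, from 57 hairpins. Extracellular vesicles are membrane particles that carry RNA and protein out of cells, and C2C12 is an established mouse myoblast line. All 4 libraries came from C2C12 myoblasts of WT genotype in DMEM with 10% fetal bovine serum, penicillin and streptomycin. The 2 damaged libraries carry the treatment label hydrogen peroxide, and the 2 WT libraries the treatment label WT. No source used here gives the peroxide dose or exposure time. Vesicles were isolated by differential centrifugation. The comparison addressed which miRNAs differ between vesicles of damaged and undamaged cells. No label ties a library to a culture of its own, so p-values measure only the spread between these libraries, which may be technical.

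In this domain the protein-coding genes Dlk1, Rtl1 and Dio3 are expressed from the paternal chromosome. The noncoding RNAs Meg3, Rian and Mirg, with the miRNAs and snoRNAs in and between them, are expressed from the maternal one. The miRNAs are abundant in the embryo, the placenta and the brain, and in muscle the locus is known from the callipyge sheep, whose hindquarter muscles overgrow. Muscle stem cells express many of these miRNAs, and the transcription factor MEF2A activates the locus in muscle.

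The mature sequences of the 5 members with the most counts are printed first, because they held most of the cluster's reads, with the arms of miR-341, the hairpin of the one member that passed the test. Sequences are from RefSeq (GRCm38.p6), 5′ to 3′, with the seed, bases 2 to 8, in capitals.
miR-127-3p: uCGGAUCCgucugagcuuggcu
miR-411-5p: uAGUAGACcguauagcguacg
miR-379-5p: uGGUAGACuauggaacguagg
miR-412-5p: uGGUCGACcagcuggaaaguaau
miR-369-5p: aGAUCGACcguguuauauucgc
miR-341-5p: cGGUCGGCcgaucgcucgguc
miR-341-3p: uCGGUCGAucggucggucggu

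RefSeq held a mature sequence for 106 of the 110 members, and the other 4 were named from their hairpins: miR-376c-3p, miR-487b-3p, miR-539-3p and miR-485-5p. Among the 105 distinct sequences there were 97 seeds, and 8 seeds were shared by 2 or more members. The 14 tested members with a sequence had 14 different seeds. The seeds of miR-379-5p and miR-411-5p differ at 1 position, as do those of miR-379-5p and miR-412-5p and those of miR-412-5p and miR-369-5p. Of the 5 most abundant members, 4 have the letters GAC at bases 6 to 8. These letters stand there in 8 of the 105 distinct member sequences and in 31 of the 1670 distinct mature sequences of the table (1.86%). The match was noticed after the values were seen and is a description of the letters only.

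The cluster held a trace of the counts assigned to miRNA rows, and its total did not separate the groups. Its rows summed to 1352 counts in WT replicate 1, 1530 in WT replicate 2, 1696 in damaged replicate 1 and 1914 in damaged replicate 2. Library totals were 4577668, 7638663, 6901394 and 7350345 counts in that order. For WT replicate 1 this is a share of 0.0295%, with an exact 95% interval from 0.0280 to 0.0312. For WT replicate 2 it is 0.0200%, between 0.0190 and 0.0211. The damaged libraries had shares of 0.0246%, between 0.0234 and 0.0258, and of 0.0260%, between 0.0249 and 0.0272. Both damaged libraries lay between the WT libraries, whose intervals do not touch. The means were 0.0248% ± 0.00672 in WT and 0.0253% ± 0.00104 in damaged (SD, n = 2 each). An exact two-sided permutation test gave p = 1, where 0.333 is the smallest p that 2 libraries against 2 allow. The damaged mean became the lower one without WT replicate 2 (difference -0.00423 percentage points) and without damaged replicate 2 (-0.000207). Leaving miR-341 out of the sum gave 0.0276% and 0.0193% in WT and 0.0244% and 0.0260% in damaged, so the damaged libraries again lay inside the WT range. All intervals and floors cover counting error only, since no source used here mentions molecular identifiers. Fewer vesicles with a miRNA and less of it per vesicle cannot be told apart in such bulk RNA.

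**Figure D1:**
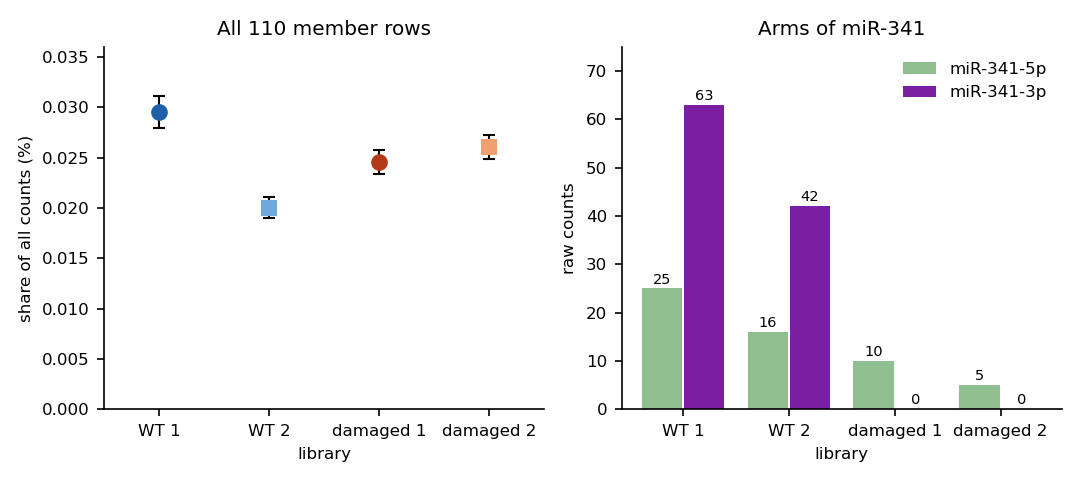
Left, the share of all counts (%, vertical axis) held by the 110 member rows in each library, with exact 95% intervals; right, raw counts of the miR-341 arms in each library. The damaged shares, 0.0246% and 0.0260%, sit between the WT ones, while the bars of miR-341-3p reach 63 and 42 in WT and are absent in damaged.

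Of the 110 members, 47 had a count in at least 1 library (42.7%, against 47.4% of all rows of the table), and 17 had one in every library. WT replicate 1, the shallowest library, detected the most members, 39, against 21 in WT replicate 2, 25 in damaged replicate 1 and 29 in damaged replicate 2. Over the whole table the libraries were alike, with 692 to 746 rows detected. Only 25 members reached 10 counts in any library, and 7 did so in every library. These 7 were miR-127-3p, miR-411-5p, miR-412-5p, miR-369-5p, miR-379-5p, miR-485-5p and miR-409-3p.

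Most reads came from 2 stretches of the locus. The 11 rows of the 6 hairpins opposite Rtl1 held 45.6% and 54.9% of member counts in WT and 52.6% and 47.2% in damaged. The 73 rows of the 37 hairpins from miR-379 to miR-410 held 47.2% and 40.4% in WT and 46.2% and 51.6% in damaged. The 6 rows within Rian held 6.58% and 3.79% in WT, against 0.708% and 0.366% in damaged. The 3 rows within Meg3 had 1 count in all, for miR-770-5p in WT replicate 1. The 14 rows between Meg3 and Rtl1 had 8 to 16 counts per library, most of them miR-493-5p.

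**Figure D2:**
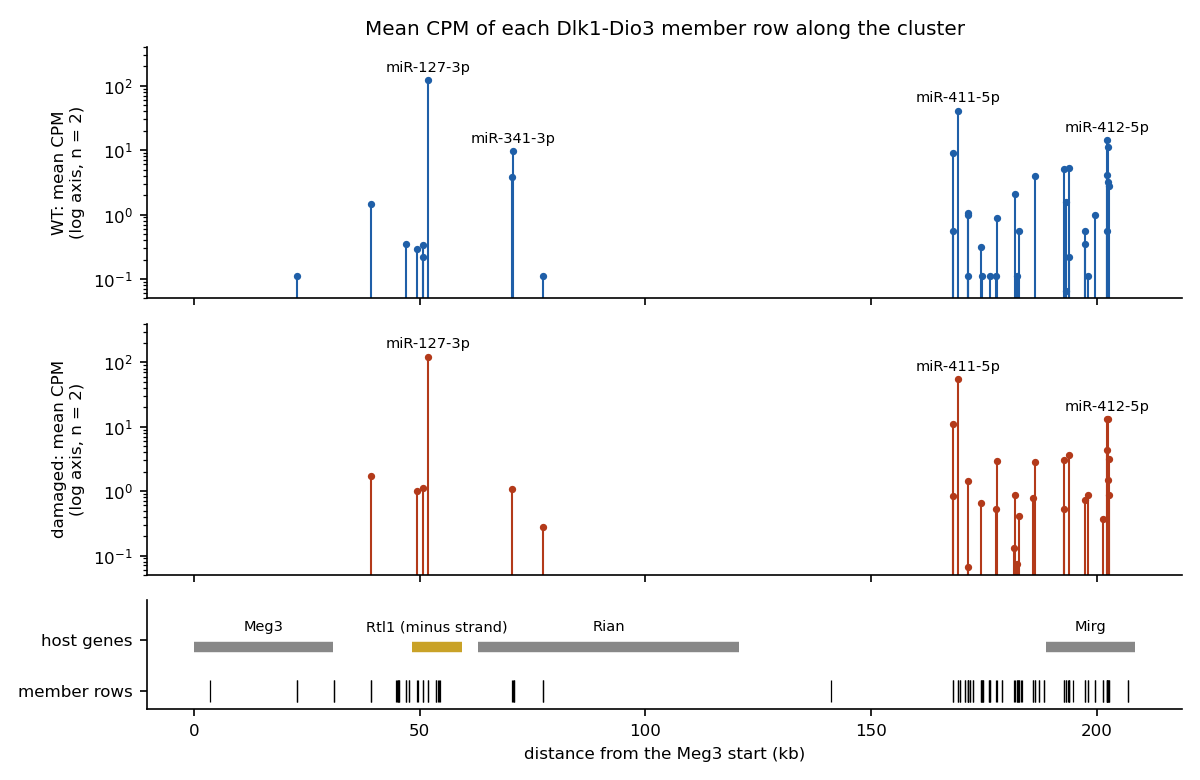
Mean TMM-scaled CPM of each member row with a count (vertical log axes, n = 2 libraries per group) against distance from the Meg3 start in kb, for WT (top) and damaged (middle), with host genes and the positions of all member rows below. miR-127-3p opposite Rtl1 and miR-411-5p near the start of the miR-379 to miR-410 stretch lead in both groups, and miR-341-3p is drawn in WT only.

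Damaged and WT were compared with edgeR's quasi-likelihood test over the whole table, which tested 536 rows with enough counts. CPM is a row's count relative to library size, scaled here by edgeR's TMM method, and log2 fold changes are damaged over WT with their SE. Of the 110 members 17 were tested, and they held at least 94.5% of the member counts of each library. A single member passed an adjusted p of 0.05, miR-341-3p, which was lower in damaged, and 16 did not pass. That is 5.88% of tested members, beside 9.51% of all tested rows called in either direction and 5.41% called lower. miR-341-3p passed the filter on low counts through the WT libraries alone, so lower was the only direction open to it. No member was called higher, against 4.1% of all tested rows. At an unadjusted p under 0.05 the same 1 member passed, against 30.8% of all tested rows. Of the 17 members, 9 had a positive log2 fold change and 8 a negative one. Their median was 0.01, against 0.02 for all tested rows, and setting miR-341-3p to its bound left it there. Its sign turned under several alternatives, some of which covered other sets of members. It was -0.28 over 47 members with no filter on low counts and -0.36 over 47 with DESeq2. With libraries left out it was -0.28 over 19 members without WT replicate 2 and -0.40 over 17 without damaged replicate 2. Without damaged replicate 1 it was 0.27 over 19. Over the same 17 members and all libraries it ran from -0.09 with replicate number as a block to 0.17 with limma-voom. In 5 of 17 members (29.4%) the groups did not overlap, 3 lower and 2 higher in damaged, against 59.9% of all tested rows. The filter on low counts kept rows present in about 2 or more libraries, and the 63 members with 0 counts in every library could show no difference. Precision was low: the tested members had a median SE of 0.92 on the log2 scale, against 0.39 for all tested rows, at a median of 4.03 CPM against 15.8.

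**Figure D3:**
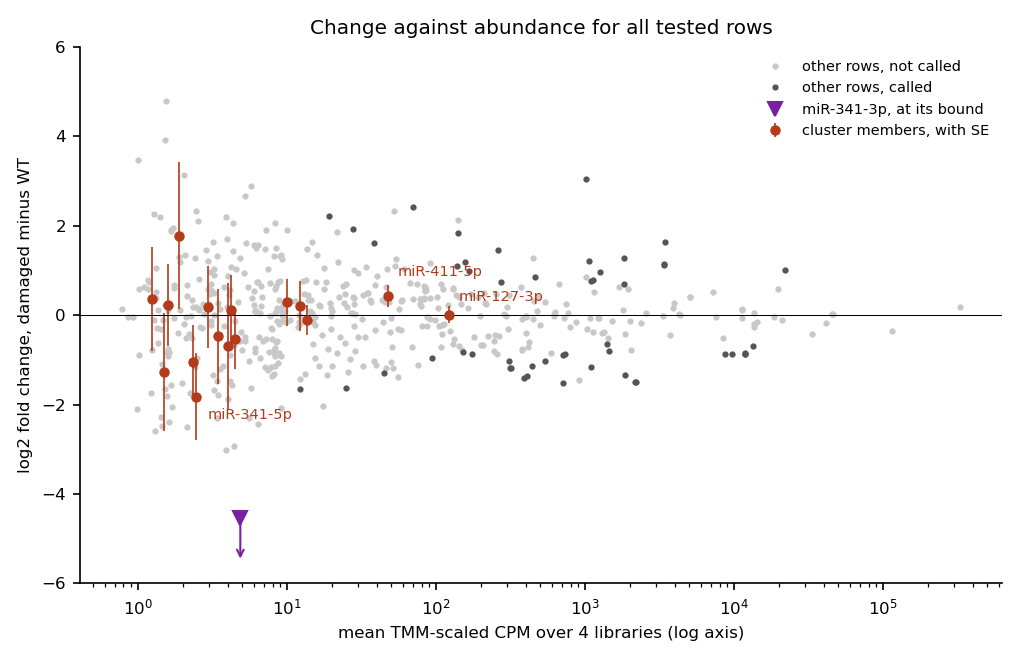
Log2 fold change (damaged minus WT, vertical axis) against mean TMM-scaled CPM over the 4 libraries (log axis) for 506 other rows and the tested members, whose bars are SE; 13 other rows with 0 counts in both libraries of a group are not drawn. Members lie on both sides of 0 with a median of 0.01. miR-341-3p is drawn with an arrow at its bound, which sets the WT mean against a floor of 3 counts in each damaged library. The bound takes the WT mean as exact.

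The hairpins opposite Rtl1 are processed from a maternal transcript that is antisense to the Rtl1 message, and miR-127, miR-433, miR-431, miR-434 and miR-136 are known to direct cleavage or repression of Rtl1. miR-127-3p (MIMAT0000139, chromosome 12 at 109592888 to 109592909, opposite an exon of Rtl1) was the most abundant member. It had 609 and 839 counts in WT and 890 and 874 in damaged. Scaled, this was 135 and 110 CPM in WT and 130 and 116 CPM in damaged. The damaged values fell within the range of the WT ones, and the log2 fold change was 0.01 ± 0.19 (SE; edgeR adjusted p = 0.986). It ranked 149 among the 536 tested rows by mean CPM. Of the cluster's reads it made up 45.0% and 54.8% in the WT libraries, with exact 95% intervals of 42.4 to 47.7 and 52.3 to 57.4. The damaged libraries had 52.5% and 45.7%, with intervals of 50.1 to 54.9 and 43.4 to 47.9. Its share thus differed between replicates of each group, and the groups overlapped.

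The other hairpins of this stretch were near or below detection. miR-431-5p, known to act on Pax7 in muscle stem cells, had 2 and 1 counts in WT and 2 and 13 in damaged. miR-433-3p had 2 and 0 counts in WT and 0 and 17 in damaged, so damaged replicate 2 alone held most reads of both. miR-434 and miR-432 had 0 counts in all 4 libraries on every arm in the table. A count of 0 allows up to 3 counts, or 0.393 to 0.655 CPM without TMM scaling. Both arms of miR-136 also stood at 0, but their rows share bases with miR-3071 on the opposite strand. The same held for miR-337 (with miR-3544) and miR-299a (with miR-299b), and these 6 rows had 0 counts in every library. The counting command names no strand and no option for reads over several features, so these 6 zeros do not bear on the level of those miRNAs. The other 57 members at 0 share no bases with an opposite-strand entry.

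miR-341 lies in an intron of Rian, and its 3p arm was the one member that passed the test. miR-341-3p (MIMAT0000588, chromosome 12 at 109611556 to 109611576) had 63 and 42 counts in WT, and neither damaged library had any. In WT this was 13.9 and 5.51 CPM. Both damaged libraries lay below both WT libraries, and the WT libraries differed from each other 2.53-fold. With 3 counts set as the floor in each damaged library, the damaged level was at least 23.3-fold below the WT mean. That mean is taken as exact, so the bound leaves out the spread between the WT libraries. The bound was 13.2-fold without WT replicate 1 and 33.4-fold without WT replicate 2. edgeR gave an adjusted p of 0.0309, and its fitted log2 fold change is no bound. The row passed the filter on low counts through the WT libraries alone, so it could only be called lower in damaged. The call rested on the tool and on single libraries: limma-voom gave an adjusted p of 0.143, and edgeR gave 0.255 without WT replicate 1, 0.155 without WT replicate 2 and 0.110 without damaged replicate 1. It passed without damaged replicate 2 (edgeR adjusted p = 0.0373), and over the alternatives the adjusted p ran from 2.37e-08 to 0.255.

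The other arm of this hairpin was also lower in both damaged libraries but did not pass. miR-341-5p (chromosome 12 at 109611521 to 109611541) had 25 and 16 counts in WT and 10 and 5 in damaged, or 5.54 and 2.10 CPM against 1.46 and 0.665 CPM. The groups did not overlap, and the log2 fold change was -1.82 ± 0.98 (SE; edgeR adjusted p = 0.275). It was -1.05 without WT replicate 1 and -2.48 without damaged replicate 1. The arms together had 88 and 58 counts in WT and 10 and 5 in damaged. In WT the 5p arm gave 28.4% and 27.6% of the hairpin's counts, and in damaged it gave every count, 15 in all. The arms are GC-rich, with 66.7% G or C in miR-341-3p and 76.2% in miR-341-5p, against a median of 47.6% over the 444 tested rows with a sequence. Whether base composition had a part in the result was not tested.

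The letters CGGU recur in both arms of miR-341, more often in the 3p arm. The motif CGGU, searched on the mature strand with overlaps allowed, occurs 4 times in miR-341-3p and 2 times in miR-341-5p. Among 1670 distinct mature sequences, 64 hold it at all (3.83%), and 3 hold it 2 or more times. The third is miR-1938, which lies outside the cluster (chromosome 12, 40222782 to 40222803, minus strand). It is shown because, like miR-341-3p but not miR-341-5p, it had counts in both WT libraries and none in damaged. It was chosen after its values were seen. Such zeros are not particular to the motif: outside the cluster, 13 tested rows, miR-1938 among them, had 0 counts in both libraries of a group, WT or damaged. Capitals mark CGGU.
miR-341-3p: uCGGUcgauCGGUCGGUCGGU
miR-341-5p: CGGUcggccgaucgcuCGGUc
miR-1938: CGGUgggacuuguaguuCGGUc
miR-1938 had 9 and 11 counts in WT and none in damaged, and did not pass (edgeR adjusted p = 0.0807). miR-1938 and miR-341-3p passed the filter on low counts through the WT libraries alone, so they had to be lower in damaged, and their shared direction is no evidence about the motif. Rian also hosts miR-370, whose 3p arm had 1 and 0 counts in WT and 2 and 2 in damaged, and miR-1188, with 0 counts.

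The stretch from miR-379 to miR-410 is one of the largest miRNA clusters of placental mammals, and its loss in mice disturbs metabolism at birth and behaviour. It held 13 of the 17 tested members, and none passed. miR-411-5p (chromosome 12 at 109710190 to 109710210, between annotated genes) had 216 and 257 counts in WT and 381 and 407 in damaged. This was 47.8 and 33.7 CPM in WT and 55.6 and 54.1 CPM in damaged, so the groups did not overlap. The log2 fold change was 0.43 ± 0.25 (SE; edgeR adjusted p = 0.319), and it stayed positive in the alternatives run, from 0.22 to 0.62. Of the member counts miR-411-5p took 16.0% and 16.8% in WT and 22.5% and 21.3% in damaged. It ranked 201 among tested rows.

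miR-379-5p, the start of the stretch and close to miR-411-5p in sequence (7 of 21 positions differ), had 23 and 98 counts in WT and 69 and 91 in damaged. Its WT libraries, at 5.09 and 12.9 CPM, enclosed the damaged ones at 10.1 and 12.1 CPM (log2 fold change 0.28 ± 0.53 SE, edgeR adjusted p = 0.808). The sign of that value turned to -0.29 without WT replicate 1.

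Near the other end of the stretch miR-412-5p and both arms of miR-369 lie in introns of Mirg. miR-412-5p had 74 and 92 counts in WT and 88 and 102 in damaged, or 16.4 and 12.1 CPM against 12.8 and 13.6 CPM. The damaged libraries lay between the WT ones, and the log2 fold change was -0.10 ± 0.34 (SE; edgeR adjusted p = 0.897). miR-369-5p had 76 and 45 counts in WT and 85 and 102 in damaged, with 16.8 and 5.91 CPM against 12.4 and 13.6 CPM, and its groups overlapped as well. Its partner arm miR-369-3p, known to bind AU-rich elements of target messages, had 16 and 21 counts in WT and 8 and 14 in damaged. Here the groups did not overlap, at 3.54 and 2.76 CPM against 1.17 and 1.86 CPM, with a log2 fold change of -1.04 ± 0.83 (SE; edgeR adjusted p = 0.449). The arms of this hairpin thus had log2 fold changes of 0.21 and -1.04, and the difference between them was not tested.

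miR-410-3p had 13 and 20 counts in WT and 8 and 38 in damaged, so its damaged libraries lay on both sides of the WT ones. miR-495-3p had 8 and 0 counts in WT and 15 and 27 in damaged, above both WT libraries, with 2.19 and 3.59 CPM against 1.77 CPM and a library at 0 (log2 fold change 1.78 ± 1.64 SE, edgeR adjusted p = 0.527). That value depended on single libraries, at 7.39 without WT replicate 1 and 0.73 without WT replicate 2. Among members with a count in every library, miR-382-5p differed most between the WT replicates. It had 43 and 4 counts in WT and 7 and 38 in damaged, an 18.1-fold difference between the WT libraries and 4.95-fold between the damaged ones in CPM. Its log2 fold change of -0.69 ± 1.41 (SE) turned to 2.42 without WT replicate 1. miR-376c-3p, of a family whose transcripts are known to be edited by ADAR enzymes, had 12 and 12 counts in WT and 11 and 1 in damaged. Its log2 fold change of -1.27 ± 1.32 (SE) went to -3.81 without damaged replicate 1 and to -0.40 without damaged replicate 2. The sequences of miR-376a-3p and miR-376b-3p differ at 3 of 21 positions, and these rows had 11 and 0 counts over the 4 libraries.

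The remaining tested rows of the stretch had overlapping groups. miR-485-5p had 34 and 24 counts in WT and 22 and 31 in damaged. miR-487b-3p had 31 and 9 counts in WT and 28 and 12 in damaged. miR-409-3p had 27 and 17 counts in WT and 19 and 45 in damaged, and miR-323-3p 2 and 13 in WT and 5 and 16 in damaged. Their log2 fold changes ran from -0.52 to 0.37, with an SE between 0.67 and 1.17. The 1 tested row between Meg3 and Rtl1, miR-493-5p, had 6 and 12 counts in WT and 9 and 16 in damaged (log2 fold change 0.24 ± 0.92 SE). Between WT replicates 10 of the 17 tested members differed over 2-fold or had a count in 1 of them only.

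**Figure D4:**
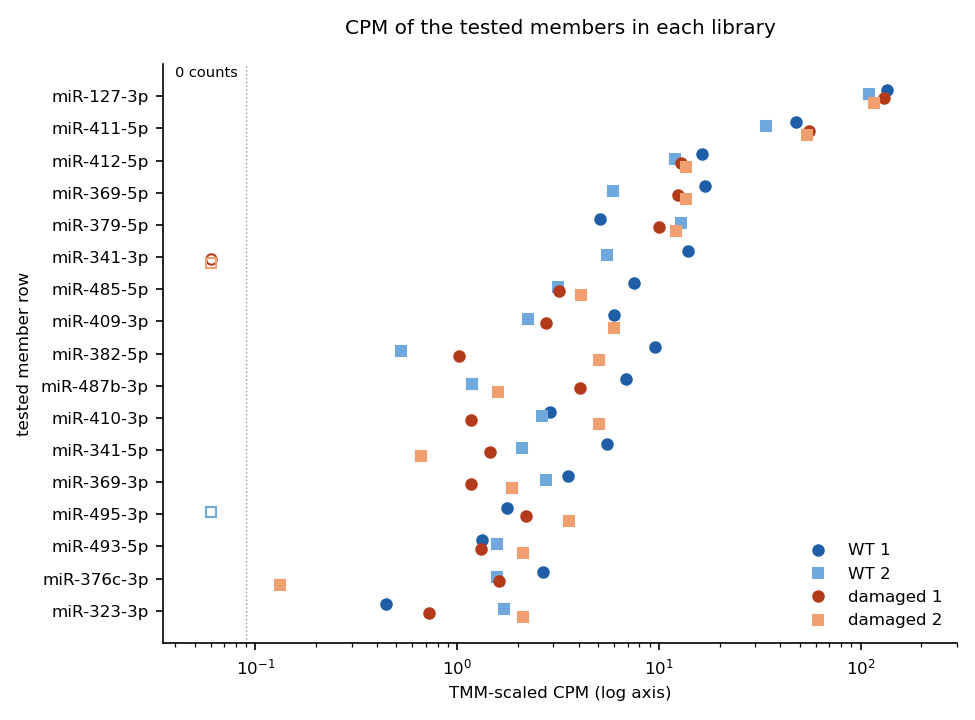
TMM-scaled CPM (horizontal log axis) of the 17 tested member rows in each library, ordered by mean CPM; open symbols left of the dotted line are libraries with 0 counts. The 4 symbols of miR-127-3p and of miR-412-5p lie close together, those of miR-382-5p spread from 0.525 to 9.52 CPM, and miR-341-3p has both damaged libraries at 0.

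A further 30 members had counts but too few to be tested, and 10 of these had at least 10 counts over the 4 libraries. In all, 18 members had counts in 1 library alone, and in 10 of them that library held 5 counts or more: 5 members in WT replicate 1, 2 in damaged replicate 1, 3 in damaged replicate 2 and none in WT replicate 2. Of members with 5 to 14 counts in sum, 10 of 14 (71.4%) had all of them in 1 library, beside 110 of 217 other rows of that sum (50.7%). The upper limit of this range was the highest count of such a member. The range was thus fitted to the members, and the shares are not an even comparison. miR-134-3p, an arm of the hairpin known for regulating dendritic spines, had 14 counts in WT replicate 1 only. miR-494-3p and miR-496a-3p had 10 and 13 counts in damaged replicate 2 only, and miR-410-5p 12 in damaged replicate 1 only. miR-381-3p had 0 counts in both WT libraries and 10 and 1 in damaged. miR-154-5p had 2 and 2 counts in WT and 1 and 10 in damaged, miR-379-3p had 5 and 0 in WT and 5 and 7 in damaged, and miR-376a-3p had 5 and 0 in WT and 3 and 3 in damaged.

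The dominant arm varied along the locus. Of the 32 hairpins with a count, 15 had reads from both arms, 8 from the 5p arm only and 9 from the 3p arm only. Of the 17 hairpins with at least 20 counts, 8 gave more 5p and 9 more 3p reads. miR-127 gave 3212 reads from its 3p arm and 0 from its 5p arm (exact 95% interval 0 to 0.115% 5p). miR-411 gave 1261 from its 5p arm and 0 from its 3p arm, and miR-412 356 and 0. miR-379 (94.3% 5p, exact 95% interval 91.0 to 96.6) and miR-369 (83.9%, 79.8 to 87.5) also favoured the 5p arm in these reads. miR-409 (4.42% 5p, 1.45 to 10.0) and miR-410 (13.2% 5p) favoured the 3p arm. These sums pool the 4 libraries and describe the reads, not the conditions.

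The edges of the window held no reads. The member nearest each edge, miR-1906 and miR-3072-3p, had 0 counts in every library. The nearest plus-strand rows outside were miR-345-3p, 703 kb before the window with 48 and 30 counts in WT and 173 and 111 in damaged, and miR-3073a-5p, 2349 kb after it with 0 counts. On the minus strand beside Dio3, within the same imprinted domain but outside the rule, miR-1247-5p had 1 and 1 counts in WT and 6 and 8 in damaged; it was not tested and was chosen after its values were seen.

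At other imprinted loci, 1 listed miRNA rose in damaged. The list holds both arms of miR-296 and miR-298 at Gnas, miR-335 in Mest, miR-483 in Igf2 and miR-675 in H19, and all 10 rows were tested. With 1 of 10 called higher, beside 4.1% of all tested rows, miR-296-5p alone passed. It rose from 21.3 and 17.1 CPM in WT to 53.4 and 62.9 CPM in damaged (log2 fold change 1.61 ± 0.25 SE, edgeR adjusted p = 0.0290), and 9 rows did not pass. Its call was lost when any 1 library was left out (edgeR adjusted p = 0.0574 to 0.155). With no filter, with at least 10 CPM in 2 libraries, with DESeq2 and with a replicate block, 2 rows of the list were called higher. In those settings and with limma-voom 1 was called lower. miR-675-3p, the product of the maternally expressed H19, had 242 and 265 CPM in WT and 166 and 152 CPM in damaged (log2 fold change -0.67 ± 0.16 SE, edgeR adjusted p = 0.0531). miR-483-3p had 25.2 and 41.4 CPM in WT and 77.7 and 66.5 CPM in damaged (log2 fold change 1.11 ± 0.30 SE, edgeR adjusted p = 0.0747). In the repeat miRNAs within Sfmbt2, the other large imprinted miRNA cluster of the mouse, 42 of 139 rows were tested, 3 were called lower and none higher by edgeR, beside 5.41% of all tested rows called lower. Their median log2 fold change was -0.80, against 0.01 in the Dlk1-Dio3 cluster. That median and count take rows of identical sequence separately. With identical mature rows summed, 22 Sfmbt2 rows were tested and 3 called lower, beside 27 of 479 over all rows. The Dlk1-Dio3 cluster still had 17 tested members in that setting. The number called lower was 7 of 110 tested with no filter, beside 68 of 1001 over all rows. It was 7 of 19 with the 10 CPM filter, beside 51 of 318. With limma-voom it was 6 of 42, beside 44 of 536, and with the replicate block 6 of 42, beside 71 of 536. With WT replicate 1, WT replicate 2 or damaged replicate 1 left out in turn, no Sfmbt2 row was called, and 1 was called without damaged replicate 2. The difference between the 2 clusters was not tested.

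The muscle label was checked against 4 muscle miRNAs. miR-206-3p, miR-133a-3p, miR-133b-3p and miR-1a-3p summed to 298735 and 335159 CPM in WT and 357005 and 372103 CPM in damaged. Of their 5 tested rows 3 were called higher by edgeR, beside 4.1% of all tested rows. These were 2 rows of miR-133a-3p and 1 of miR-133b-3p. Dlk1-Dio3 miRNAs are also made in brain, and of 8 neural markers 6 had counts, with miR-9-5p and miR-219a-5p at 0, each with 1 row that shares bases with an opposite-strand entry. Of those with counts, miR-124-3p had only 1 count, in WT replicate 1, and miR-137-3p only 1, in damaged replicate 1. The neural sum ran from 2387 to 2703 CPM in WT and from 1963 to 2296 CPM in damaged, and in WT most of it was miR-218-5p. Of the 7 neural rows tested by edgeR, 1 was called higher (1 of the 2 rows of miR-128-3p) and 2 lower (both rows of miR-218-5p). Over all tested rows 4.1% were called higher and 5.41% lower. Of 6 blood cell markers 4 had counts, with miR-486a-5p and miR-142a-3p at 0 in rows that share bases with the opposite strand. Their sums were 1526 to 1745 CPM in WT and 1447 to 1554 CPM in damaged. In every library most of that sum was miR-451a, at 1683 and 1490 CPM in WT and 1501 and 1386 CPM in damaged. Of 5 epithelial markers 3 had counts, with 0 to 2.89 CPM in WT and 2.93 to 12.1 CPM in damaged. The single liver and endothelial markers, miR-122-5p and miR-126a-3p, stood at 0 in rows that share bases with the opposite strand. The part of these sources in the lower miR-341 counts was not tested, and bovine miRNAs of the serum with the same sequence as mouse ones cannot be told apart from them.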

How the data were processed

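Small RNA of vesicles was sequenced from 4 libraries, 2 damaged and 2 WT, grouped by the titles in the labels. The authors deposited 1 table of raw counts per mature miRNA row. The submitters' processing notes name mm10, BWA, FastQC and featureCounts. The command in the file's header, per the file headers, shows featureCounts 2.0.1 with no option for strand, multi-mapping reads or reads over several features. No source used here gives the BWA version or adapter trimming.

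Rows were named by coordinates from RefSeq mature entries (1734 rows) or, failing these, by hairpin position in RefSeq or GENCODE vM21 of the same build; 2101 of 2110 rows received a name. Counts were tested with edgeR 4.0.16 in R 4.3.3 (quasi-likelihood test, TMM, filterByExpr with minimum count 10, no covariate beside group, Benjamini-Hochberg over all tested rows at 0.05), after a test on simulated data. SE is the size of the log2 fold change over the square root of F. Alternatives were RLE, upper-quartile and library-total scaling, other filters, DESeq2 1.42.0, limma-voom (limma 3.58.1), a replicate block, summed identical rows, and leaving out each library. A fixed floor of 3 counts was used for a count of 0. Library totals of 4577668 to 7638663 counts turn it into 0.655 to 0.393 CPM. Replicates of each group differed beyond sampling noise (chi-square per degree of freedom 109 in WT and 204 in damaged) and were kept apart.

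The members and the lists were chosen with earlier results of these data known. Named were the tested members, untested ones with at least 10 counts in sum, members at 0 that overlap another entry, the window edges and the listed imprinted loci. Outside that rule, miR-1938, miR-1247-5p, miR-434, miR-432, miR-370-3p, miR-1188, miR-376b-3p, miR-539-3p and miR-770-5p were chosen after their values were seen.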

Additional observations from a re-analysis of the deposited data

How the results depend on the processing

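Of 209 recomputed log2 fold changes of single tested members over 13 other settings, 134 kept their direction and side of the threshold with all libraries, as did 49 with a library left out; 6 and 16 signs reversed, in that order. Under settings that keep all libraries, miR-341-3p lost its call with limma-voom (log2 fold change -6.85), so the count of members lower went from 1 to 0. It was also 0 with at least 10 CPM required in 2 libraries, where 5 members were tested and miR-341-3p was not among them. Signs reversed for miR-127-3p with upper-quartile scaling (-0.049) and with the 10 CPM filter (-0.0088), and with limma-voom for miR-487b-3p (0.24), miR-382-5p (0.81) and miR-410-3p (-0.076). No label says that replicate numbers pair the libraries. Same-numbered libraries did not deviate together (correlation of deviations 0.0041 over 536 rows), which cannot settle whether they are paired. With the replicate block miR-410-3p went to -0.11, and 56 rows were called higher and 71 lower, against 22 and 29 without it; 1 member was called, as before. Rows called higher numbered 63 with no filter, 40 with the 10 CPM filter, 42 with DESeq2 and 35 with limma-voom. Rows called lower numbered 68, 51, 58 and 44 in that order, and 48 with upper-quartile scaling. Requiring 10 counts in a library gave 25 detected members instead of 47.

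With each library left out in turn, rows called higher ran from 0 to 11 and lower from 0 to 19, and members called lower from 0 to 1. The count was 0 when WT replicate 1, WT replicate 2 and damaged replicate 1 were each left out, where edgeR gave 103, 124 and 144 rows at an unadjusted p under 0.05. Ranges of log2 fold change that crossed 0 were -0.16 to 0.51 (miR-493-5p), -0.11 to 0.081 (miR-127-3p), -0.29 to 1.147 (miR-379-5p), -0.58 to 1.68 (miR-323-3p), -1.29 to 1.17 (miR-487b-3p), -2.27 to 2.42 (miR-382-5p), -1.01 to 0.14 (miR-485-5p), -0.56 to 0.89 (miR-409-3p), -0.28 to 0.049 (miR-412-5p), -0.35 to 1.06 (miR-369-5p) and -1.23 to 0.85 (miR-410-3p). The difference in the cluster's share ran from -0.00423 to 0.00528 percentage points. The alternatives for the other imprinted loci were chosen after seeing the data. Counts of a few reads per library limit most members, and the cause of these differences was not tested.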
